A study of Rattus norvegicus with 6 samples.

Results

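Dcn, Bgn, Lum, Fmod, Omd and Ogn, genes of small leucine-rich proteoglycans of the muscle matrix, were followed in the diaphragm of diabetic and normal rats. The members were taken by name, and every probe set annotated to exactly 1 of the 6 genes was used, whatever its values. This gave 9 probe sets for 6 of the 10411 named genes on the array: 1 each for Dcn, Bgn, Lum, Fmod and Omd, and 4 for Ogn. All 9 lay above the filter on mean signal, and 0 were shared with another gene.

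Left costal hemidiaphragm was taken from 3 diabetic and 3 normal male Wistar rats and hybridized to Affymetrix RAE 230A arrays, 1 array per rat. At 8 weeks of age the diabetic rats received 1 intraperitoneal dose of streptozotocin, which destroys insulin-producing beta cells, at 60 mg/kg. The normal rats received the buffer alone (0 mg/kg). Muscle was taken 4 weeks later from rats of both groups after an overnight fast, and no insulin was given. Effects of the toxin itself on muscle and effects of the diabetes that follows it cannot be told apart in this design. The study also reported that the normal rats gained weight over these weeks while the diabetic rats lost weight. Effects of this difference in growth cannot be told apart from the others either. Each value is an MAS 5.0 signal, a background-corrected intensity of a probe set on a linear scale, so a higher signal of 1 probe set than of another does not make its gene the more abundant. Costal diaphragm is a sheet of muscle with a tendon, a mesothelial cover and connective tissue, so each RNA sample holds several cell types, and fewer cells of a type cannot be told apart from less RNA per cell.

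Small leucine-rich proteoglycans are secreted proteins with a core of leucine-rich repeats, on which chains of chondroitin, dermatan or keratan sulfate may be built. Fibroblasts make most of them in muscle, and they bind collagen fibrils, set fibril diameter and spacing, and hold growth factors in the matrix. They fall into classes by sequence: decorin and biglycan in class I, lumican, fibromodulin and osteomodulin in class II, and osteoglycin in class III.

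The comparison asked which of these genes changed their expression in diabetic muscle. Omd was higher in diabetic diaphragm, at 3.16 times the normal mean signal, and Lum was lower, at 0.368 times the normal mean. Dcn, Bgn, Fmod and Ogn did not pass the test, and all had overlapping groups. By limma, with p-values adjusted by Benjamini-Hochberg over all 9519 probe sets tested and a threshold of 0.05, 2 of the 9 member probe sets were called, while 6.78% of all tested probe sets were called (3.30% higher and 3.48% lower in diabetic muscle). Counted by genes, each by its brightest probe set, 1 of the 6 members was higher and 1 was lower, and 3.46% of all 7080 tested genes were higher and 3.55% lower. The diabetic and normal arrays were without overlap for the same 2 probe sets, beside 29.6% of all tested probe sets. Omd was among the genes that the study had selected on these arrays, so its direction is not independent of that selection.

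**Figure D1:**
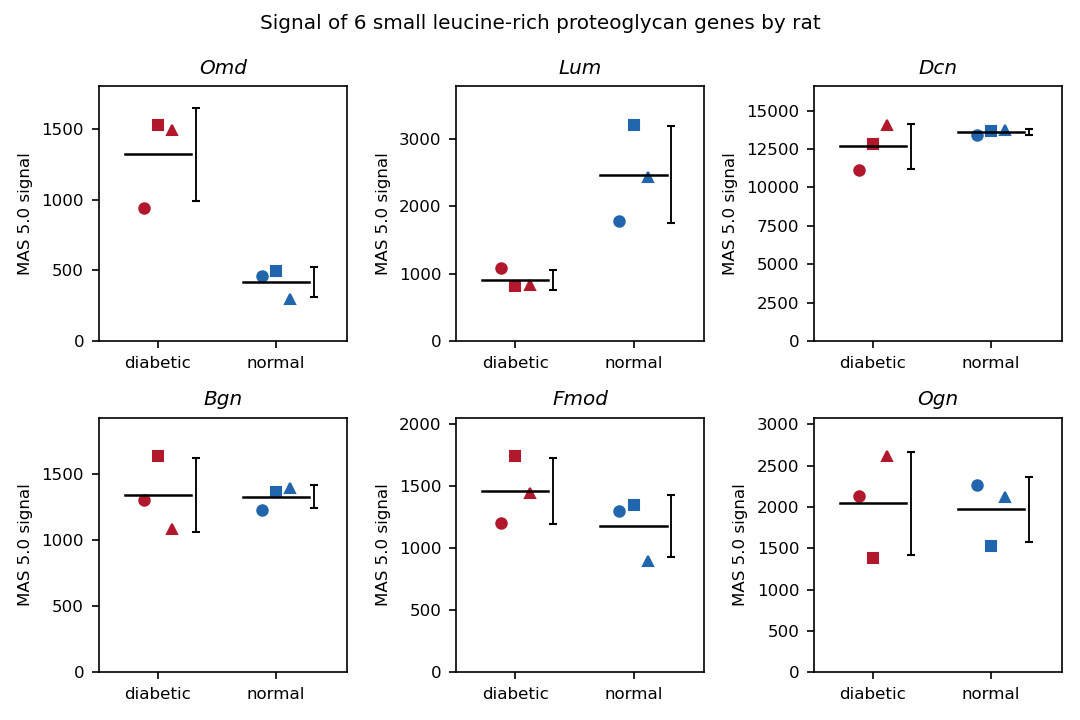
MAS 5.0 signal of each member gene (brightest probe set, linear axis from 0) on the diabetic arrays, at the left of each panel, and the normal arrays, at the right. Points are single rats (circle, square and triangle for replicates 1, 2 and 3), bars are group means and error bars are SD (n = 3 each). Omd lies at 942.1 to 1532.7 in diabetic and 296.5 to 497.9 in normal diaphragm, Lum at 821.6 to 1076.6 in diabetic and 1773.8 to 3205.6 in normal, and the other 4 genes overlap.

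The class I gene Dcn encodes decorin, which carries a single glycosaminoglycan chain, binds type I collagen fibrils and can bind transforming growth factor beta and myostatin. Its probe set 1370956_at gave signals of 11120.8, 12811.0 and 14074.7 in diabetic replicates 1, 2 and 3, against 13384.4, 13658.5 and 13736.1 in normal replicates 1, 2 and 3. The diabetic arrays held both the lowest and the highest of the 6 values, with the normal arrays close together between them. The means were 12669 ± 1482 in diabetic and 13593 ± 185 in normal diaphragm (SD, n = 3 each), a log2 fold change of -0.11 (standard error 0.13, 95% interval -0.41 to 0.19, limma adjusted p = 0.68). The coefficient of variation was 11.7% in diabetic and 1.36% in normal muscle, a difference in spread that was not tested.

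Bgn encodes biglycan, the close relative of decorin that carries chains near its amino end and is found with the dystrophin-associated proteins at the muscle fibre membrane. Signals of its probe set 1367594_at were 1306.2, 1633.3 and 1084.0 in diabetic and 1229.2, 1366.1 and 1393.0 in normal replicates 1, 2 and 3. Again the highest and lowest arrays were both diabetic. The means were 1341 ± 276 in diabetic and 1329 ± 87.8 in normal muscle (SD, n = 3 each). The log2 fold change was -0.01 with a standard error of 0.18 and a 95% interval of -0.40 to 0.39 (limma adjusted p = 0.99), and its sign turned with the scaling of the arrays (0.01 with arrays scaled to the same median). Ratios of 0.760 to 1.31 lie inside that interval.

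Among the class II genes, Lum was the member that fell. It encodes lumican, a keratan sulfate proteoglycan that limits the growth of collagen fibrils and is known best for keeping the cornea clear. The signals of probe set 1367749_at were 1076.6, 821.6 and 827.2 in diabetic replicates 1, 2 and 3, and 1773.8, 3205.6 and 2426.4 in normal replicates 1, 2 and 3. No diabetic value reached the normal range, and the highest diabetic value, replicate 1, was well under the lowest normal value, also replicate 1. The means were 908 ± 146 in diabetic and 2469 ± 717 in normal diaphragm (SD, n = 3 each), so the mean signal was 2.72-fold lower in diabetic muscle. The log2 fold change was -1.41 with a standard error of 0.22 and a 95% interval of -1.90 to -0.93 (limma adjusted p = 0.0055). With each array left out in turn it ranged from -1.63 to -1.20, and the adjusted p stayed at or below 0.025. Counted by log2 fold change, 53 of 7080 tested genes, Lum included, were as low or lower.

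Fmod encodes fibromodulin, which shares a binding site on type I collagen with lumican and is abundant in tendon. Probe set 1367700_at gave 1207.3, 1741.4 and 1444.8 in diabetic and 1304.3, 1346.5 and 894.8 in normal replicates 1, 2 and 3. Both groups covered much of the same range, with the highest array among the diabetic and the lowest among the normal. The mean signal was 1464 ± 268 in diabetic and 1182 ± 250 in normal muscle (SD, n = 3 each), a log2 fold change of 0.32 (standard error 0.20, 95% interval -0.13 to 0.77, limma adjusted p = 0.38). The interval reaches a rise of 1.70-fold. With single arrays left out the log2 fold change ran between 0.13 (without normal replicate 3) and 0.45 (without diabetic replicate 1), and no omission brought a call.

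Omd encodes osteomodulin, also called osteoadherin, a keratan sulfate proteoglycan first known from bone matrix, where it binds mineral and bone-forming cells. Probe set 1387197_at gave signals of 942.1, 1532.7 and 1494.4 in diabetic replicates 1, 2 and 3, against 461.7, 497.9 and 296.5 in normal replicates 1, 2 and 3. All 3 diabetic arrays were above all 3 normal arrays, with the closest approach between diabetic replicate 1 and normal replicate 2. The means were 1323 ± 330 in diabetic and 419 ± 107 in normal diaphragm (SD, n = 3 each). The log2 fold change was 1.66 with a standard error of 0.25 and a 95% interval of 1.11 to 2.21, which is 2.16-fold to 4.63-fold (limma adjusted p = 0.0047). With each array left out in turn it ranged from 1.43 to 1.89, with adjusted p at or below 0.022. By log2 fold change, 36 of 7080 tested genes, Omd included, were as high or higher.

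The promoter of Omd is shown because it belongs to the member that rose. It holds the 250 bases before the annotated start of the gene, from RefSeq on the rat build GRCr8 (chr17:15274871-15275120, minus strand, printed 5′ to 3′ as the gene is read).
Omd promoter: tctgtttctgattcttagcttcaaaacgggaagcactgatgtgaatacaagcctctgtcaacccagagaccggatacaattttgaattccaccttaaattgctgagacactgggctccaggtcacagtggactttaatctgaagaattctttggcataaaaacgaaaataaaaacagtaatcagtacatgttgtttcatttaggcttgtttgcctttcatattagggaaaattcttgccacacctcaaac
No letter is in capitals because none of 7 short motifs searched on both strands occurs in this window. These were the TATA box (TATAAA, in 12.9% of the 33469 promoter windows of the same length), the CCAAT box (CCAAT, 34.0%), the GC box (GGGCGG, 30.5%) and the E-box (CANNTG, 65.5%). The other 3 were the AP-1 site (TGANTCA, 6.34%), a FoxO site (GTAAACA, 3.22%) and the Smad CAGA box (CAGAC, 42.9%). The window is 38.8% G and C, and the median over all promoters is 51.2%. The absence of these letters from this window says nothing of the factors.

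**Figure D2:**
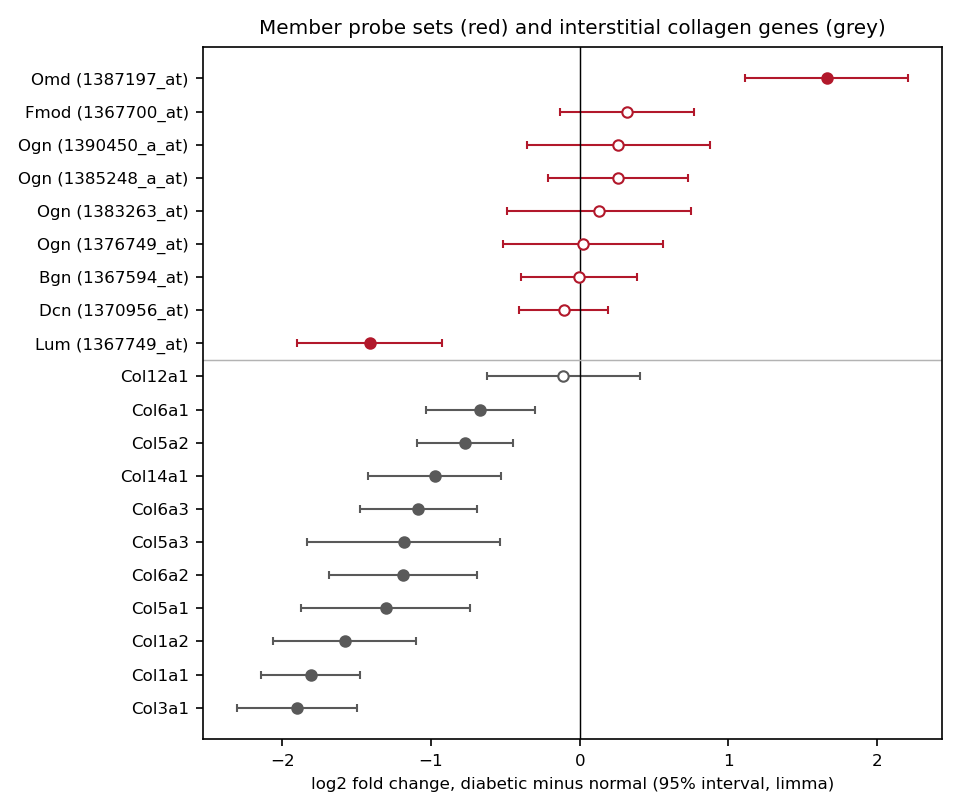
Log2 fold change, diabetic minus normal, with 95% intervals from limma for the member probe sets (red) and the 11 tested collagens (grey). Filled points had an adjusted p under 0.05: Omd at 1.66 and Lum at -1.41 among the members, and 10 of 11 collagens, all lower in diabetic diaphragm.

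Ogn, the class III member, encodes osteoglycin or mimecan, a small keratan sulfate proteoglycan of connective tissue that also circulates in blood. It had 4 probe sets, and none was called. The brightest, 1376749_at, gave 2135.2, 1380.1 and 2611.6 in diabetic and 2270.5, 1526.5 and 2120.8 in normal replicates 1, 2 and 3. Its log2 fold change was 0.02 (standard error 0.24, 95% interval -0.51 to 0.56, limma adjusted p = 0.97), and the sign turned to -0.09 with array weights. Probe set 1385248_a_at gave 1947.8, 2419.7 and 1978.9 in diabetic and 1488.5, 2484.9 and 1486.0 in normal replicates 1, 2 and 3, a log2 fold change of 0.25 (95% interval -0.22 to 0.73, limma adjusted p = 0.51). The groups overlapped in both.

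The 4 Ogn probe sets did not follow 1 pattern over the rats. Signals of 1383263_at were 1572.4, 1106.2 and 2331.6 in diabetic and 1587.5, 1052.0 and 1851.0 in normal replicates, and those of 1390450_a_at were 242.4, 205.3 and 249.2 in diabetic and 141.5, 303.7 and 168.0 in normal replicates. Replicate 2 of each group was the lowest of its group for 1376749_at and 1383263_at and the highest of its group for 1385248_a_at. On the log2 scale, 1376749_at minus 1385248_a_at was 0.13, -0.81 and 0.40 in diabetic and 0.61, -0.70 and 0.51 in normal replicates 1, 2 and 3. This difference separated replicate 2 from the other rats within each group, and not diabetic from normal muscle (difference of means -0.23, two-sided exact permutation p = 0.5, smallest possible 0.1). The GAPDH 3′/5′ signal ratio, a sign of RNA quality, was 1.48 in diabetic replicate 2, the lowest of its group, and 4.02 in normal replicate 2, the highest of its group. Its part in the pattern was not tested.

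**Figure D3:**
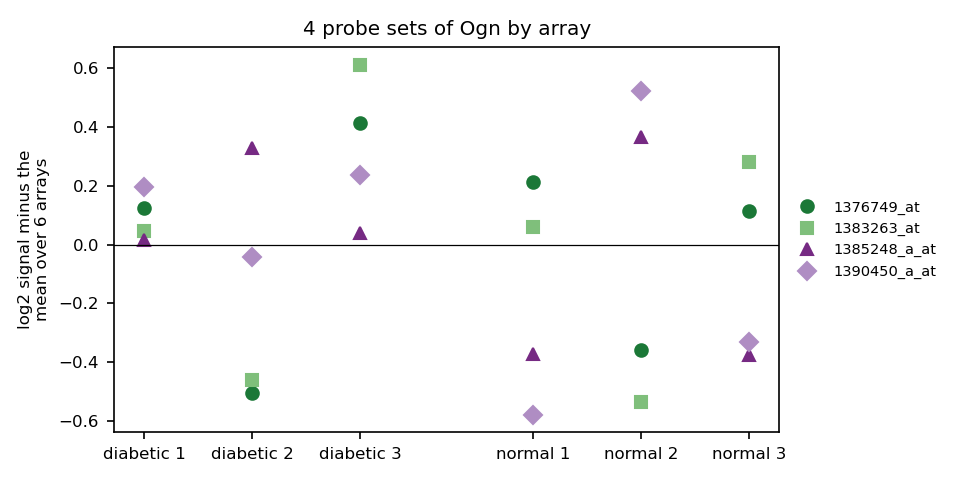
Log2 signal of the 4 Ogn probe sets, each centred on its own mean over the 6 arrays, with the diabetic arrays at the left and the normal arrays at the right. On the replicate 2 arrays, 1376749_at is at -0.51 in diabetic and -0.36 in normal muscle, and 1385248_a_at at 0.33 in diabetic and 0.37 in normal muscle.

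Some members are neighbours on their chromosomes, and their values were compared within each array. In the protein-coding gene order of GRCr8, Dcn, Lum, Kera and Epyc follow each other on chromosome 7, and Ogn, Omd and Aspn on chromosome 17. Optc, Prelp and Fmod follow each other on chromosome 13, and Bgn is on chromosome X. The log2 difference Lum minus Dcn within an array was -3.81 ± 0.38 in diabetic and -2.50 ± 0.41 in normal muscle (SD, n = 3 each), a change of -1.30 without overlap. Omd minus Ogn was -0.61 ± 0.69 in diabetic and -2.25 ± 0.61 in normal muscle (SD, n = 3 each), a change of 1.64 without overlap. Bgn minus Dcn, the class I pair, changed by 0.10, with overlap. Omd minus Lum, the called members, which are not neighbours, changed by 3.07, also without overlap. Over these 4 pairs, two-sided exact permutation gave p = 0.1 for the 3 without overlap and 0.8 for Bgn minus Dcn. After Benjamini-Hochberg adjustment these were 0.133 and 0.8. With 3 arrays against 3, 0.1 is the smallest p possible, so this test could call no pair. Each of the 3 pairs without overlap holds Lum or Omd, which were already called. Their partners Dcn and Ogn had log2 fold changes of -0.11 and 0.02. The 3 separations thus largely restate the calls of Lum and Omd and are no further result.

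The genes with the patterns closest to each called member were found by the root mean square difference of centred log2 signals over the 6 arrays, among 7079 other tested genes. For Lum these were Sfrp4, a secreted inhibitor of Wnt signalling (0.16), Fndc1 (0.16) and the phosphatase gene Ptpn3 (0.18). For Omd they were Spsb1 (0.15), Zfand2a (0.17) and Slc35f5 (0.20). Sfrp4, the nearest to Lum, had signals of 182.3, 169.4 and 136.1 in diabetic and 290.5, 456.3 and 388.9 in normal replicates 1, 2 and 3. Like Lum, it was lowest among normal rats in replicate 1 and highest in replicate 2. That likeness follows from how Sfrp4 was chosen and is no further result.

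Other genes of the same family showed no called change. Of 12 further small leucine-rich proteoglycans listed, 3 had a probe set, 2 were tested and 0 were called, with a median log2 fold change of -0.24. Over all 7080 tested genes the median was 0.01, and 7.01% were called. Prelp, a class II member that anchors basement membranes to collagen, had signals of 208.4, 376.9 and 277.0 in diabetic and 393.3, 378.6 and 312.5 in normal replicates (log2 fold change -0.37, limma adjusted p = 0.36). Aspn, the class I gene beside Omd, had 183.5, 170.2 and 136.4 in diabetic and 176.9, 164.6 and 185.7 in normal replicates (log2 fold change -0.11, limma adjusted p = 0.79). Chad, a cartilage protein, was under the filter, at 63.3, 55.1 and 38.7 in diabetic and 129.9, 24.2 and 12.7 in normal replicates. All 3 overlapped between the groups.

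Collagens of the muscle matrix were mostly lower. The list holds fibril-forming collagens, Col12a1 and Col14a1, which lie on fibrils, and chains of type VI, which forms microfilaments of its own. Of 13 listed collagens, 11 were tested and 10 were lower in diabetic diaphragm. None was higher and Col12a1 was not called, with a median log2 fold change of -1.19. Of all 7080 tested genes, 3.55% were called lower. Col3a1 was 3.69-fold lower and Col1a1 3.51-fold lower, both chains of the main fibrils of muscle connective tissue. Col1a2 was 2.91-fold lower and Col5a1, a chain that starts fibrils, 2.38-fold lower. The study had selected Col1a1, Col1a2, Col3a1, Col5a1 and Col5a3 on these arrays, so the count is not independent of that selection. Among the tested collagens, second probe sets of Col1a1, Col1a2 and Col5a1 were also called lower. Those of Col5a2 and Col14a1 were lower without overlap but not called (limma adjusted p = 0.093 and 0.068). Those of Col6a2 and Col12a1, below the filter, overlapped between the groups. With each array left out, 7 to 8 of the collagens were called. Col6a1 passed in 0 of 6 such cases, Col5a3 in 1 (without diabetic replicate 3) and Col14a1 in 2.

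Set against the mean log2 signal of the 11 tested collagens on the same array, Lum changed by -0.27 and its groups overlapped. A gene with no change of its own moves by 1.14 on this scale, since the collagens fell by that much on average. Dcn (1.04), Bgn (1.14) and Ogn (1.17) lay at about that value, Fmod was at 1.46 and Omd at 2.81. These 5 genes were higher on every diabetic than on every normal array, and so were 92.6% of all 7080 tested genes, so the separation is no result about the members. This comparison was chosen after the values were seen and is a description, with no test.

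**Figure D4:**
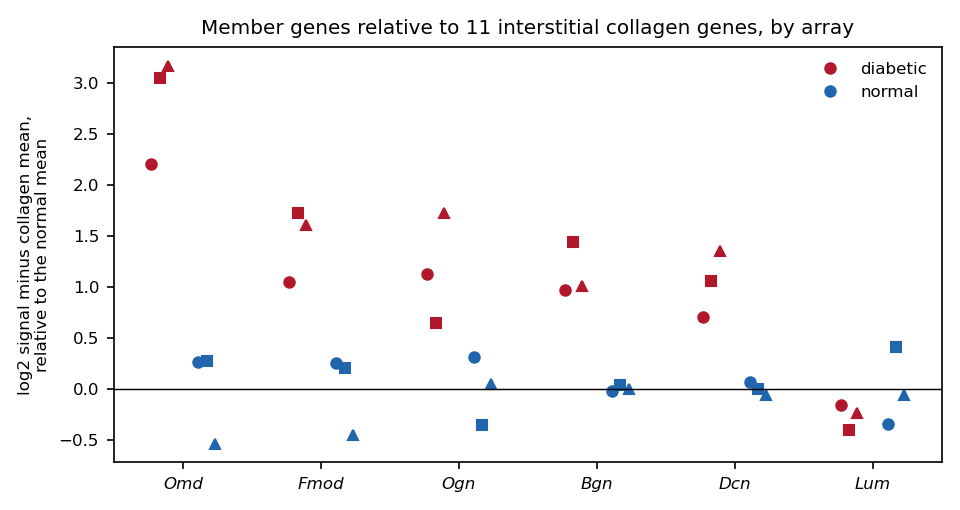
Log2 signal of each member minus the mean log2 signal of 11 tested collagens on the same array, shown relative to the mean of the normal arrays, with diabetic arrays at the left of each pair. Lum overlaps between the groups (difference -0.27), and the other 5 members are higher on every diabetic array, by 1.04 (Dcn) to 2.81 (Omd) on average. A gene with no change of its own moves by 1.14 on this scale, and 92.6% of all tested genes were higher without overlap.

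Of 24 proteoglycans of other families, 20 had a probe set, 12 were tested, 1 was higher, 0 were lower and 11 were not called, near the 7.01% called over all tested genes, with a median log2 fold change of -0.05. The gene that rose was Esm1, which encodes endocan, a dermatan sulfate proteoglycan of endothelial cells, with signals of 165.9, 578.5 and 702.8 in diabetic and 109.5, 94.3 and 133.5 in normal replicates 1, 2 and 3. Every diabetic array was above every normal array, and diabetic replicate 1 was close to the normal arrays (4.29-fold, log2 fold change 1.87, standard error 0.45, limma adjusted p = 0.036). Esm1 was also among the genes the study had selected on these arrays, and it passed only without diabetic replicate 1 when each array was left out in turn (log2 fold change 2.52), with an adjusted p of up to 0.12. Of 8 endothelial markers 6 were tested, with Kdr higher and Tie1 lower, and they summed to 5003 to 5539 on diabetic and 4370 to 4738 on normal arrays, without overlap. Only Kdr was higher without overlap, at 1418.4 to 1800.7 on diabetic and 828.2 to 1095.9 on normal arrays. Tie1 was lower without overlap. The rest overlapped, each with a higher mean signal in diabetic muscle. The part of endothelial cells in the rise of Esm1 was not tested. Among 13 tested genes that build and sulfate the glycosaminoglycan chains, 0 were called (median log2 fold change 0.11).

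A further list held enzymes that process or cleave the core proteins, their inhibitors, and Pcolce, which is neither. Of these genes 9 were tested, with 1 higher, 2 lower (Pcolce and Mmp2) and a median log2 fold change of -0.37. The shares over all tested genes were 3.46% higher and 3.55% lower. Pcolce, which speeds the removal of the carboxyl propeptide of fibrillar procollagens, had 216.6, 286.7 and 238.7 in diabetic and 639.7, 658.8 and 867.0 in normal replicates 1, 2 and 3. All diabetic arrays lay below all normal arrays (2.92-fold lower, limma adjusted p = 0.0019), and Pcolce too had been selected by the study. Mmp2, a gelatinase, was 1.57-fold lower (limma adjusted p = 0.032) and passed only without normal replicate 2 (highest adjusted p 0.10) when single arrays were left out. Adamts1, a protease of proteoglycan cores, was 2.45-fold higher (limma adjusted p = 0.029) and passed in 2 of 6 such cases, without normal replicate 2 or diabetic replicate 2.

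Of the ligands and receptors that the core proteins can bind, 15 were tested, with 2 higher, 2 lower and a median log2 fold change of 0.00. Across all tested genes, 3.46% were called higher and 3.55% lower. Ccn2, a matricellular growth factor, and Kdr, a receptor of vascular endothelial growth factor, were higher, with mean signals of 2013 and 1581 in diabetic and 1182 and 1002 in normal muscle. Igf1, the insulin-like growth factor, and Fn1, fibronectin, were lower, with mean signals of 1139 and 1008 in diabetic and 1988 and 1707 in normal muscle. The limma adjusted p was 0.042 for Ccn2, 0.046 for Kdr, 0.031 for Igf1 and 0.020 for Fn1. With single arrays left out, Kdr passed in 0 of 6 cases, Ccn2 and Igf1 only without normal replicate 1, and Fn1 in 2, without diabetic replicate 2 or 3.

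The cell type lists that bear most on these genes were those of fibroblasts, tendon and bone. Beside the counts below, 3.46% of all tested genes were called higher and 3.55% lower. Of 14 listed fibroblast markers, 12 were on the array and 9 were tested, of which 1, Mfap5, was lower and 0 were higher (median log2 fold change -0.34). Thy1, Tcf21 and Clec3b were below the filter. The summed fibroblast signal was 19688 to 22575 on diabetic and 22815 to 25553 on normal arrays, without overlap. The largest part of this sum was Gsn, which overlapped between the groups (diabetic over normal 0.96). Fbln2 (1.25) and Serping1 (1.05) had higher diabetic means, and the rest of the tested fibroblast markers had lower ones. Dpt (0.73), Pi16 (0.69) and Mfap5 (0.59) were lower without overlap, and the other tested markers overlapped between the groups. Clec3b, below the filter, was also lower without overlap. The markers thus did not all move the same way. The part of fibroblasts in the fall of Lum was not tested. Bone and cartilage markers, which bear on Omd as a bone matrix gene, were at or near background: 5 of 9 were on the array, all 5 were below the filter, and they summed to 52.5 to 92.1 on diabetic and 77.9 to 91.2 on normal arrays. Bglap, the osteocalcin gene, averaged 2.53 in diabetic and 2.27 in normal muscle. Of 7 tendon markers, 4 were on the array, 2 were tested and 0 were called (median log2 fold change 0.54), with sums of 1770 to 3362 on diabetic and 1380 to 2297 on normal arrays. The 10 skeletal muscle fibre markers were all tested, and their sums were 149797 to 218790 on diabetic and 195791 to 219945 on normal arrays. Myh4, a myosin of fast fibres, and Mb, myoglobin, were lower in diabetic muscle. Of the smooth muscle markers 7 were tested and 2, Acta2 and Rgs5, were lower. None was called among the tested markers of mesothelium (6), adipocytes (3), macrophages (7), satellite cells (1), Schwann cells (3) and red blood cells (2), and all 5 hepatocyte markers on the array were below the filter.

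The arrays had median signals of 167.1 to 180.5 and a trimmed mean of 500.2 each. The β-actin 3′/5′ ratio was 1.17 to 2.27 and the GAPDH ratio 1.27 to 4.02. Both upper ends are above those the study reported for these ratios, for a reason not found here. The RNA integrity numbers that the study reported were high. The spiked bacterial transcripts stood apart on diabetic replicate 3, at 1.94 times the geometric mean of the arrays, and at 0.741 to 1.01 on the other 5. Without that array Omd had a log2 fold change of 1.56 (limma adjusted p = 0.022) and Lum one of -1.35 (limma adjusted p = 0.024).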

How the data were processed

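Gene expression was measured in 3 diabetic and 3 normal diaphragms, with an RAE 230A array (Affymetrix) for each rat. The deposited signal values were computed by the authors with MAS 5.0, and each is an intensity of a probe set on a linear scale. They were scaled per array, with a trimmed mean of 500.2 on each, and the sources used here do not state the target. Present calls and the BAM test of the study were not repeated, and limma took the place of BAM.

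A floor of 1, which applied to 136 deposited values, preceded the log2 transformation. The 57 control probe sets and dim ones, of mean signal up to the 40th percentile (105.78), were left out. The other 9519 were compared with limma 3.58.1 in R 4.3.3 (variance trend, Benjamini-Hochberg, 4 residual degrees of freedom). The number of arrays limits the precision. The platform annotation named 1 gene for 12783 probe sets, several for 312 and none for 2771, and symbols were updated by gene identifier to RefSeq GRCr8. A gene was represented by its brightest probe set. Folds were computed from the group mean signals, diabetic over normal, or the inverse where written as lower. Intervals are at 95%. Replicate numbers did not pair the rats.

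The members and lists were chosen with earlier results of these data known. Genes named are all members, the other family members with a probe set, up to 4 called genes in each direction per list (all where at most 5 were called), and the 3 patterns nearest each called member. Outside the rule and picked with values known were the markers Mfap5, Dpt, Pi16, Thy1, Tcf21, Clec3b, Gsn, Fbln2, Serping1, Bglap, Tie1, Acta2, Rgs5, Myh4 and Mb. Of the collagens, Col12a1, Col5a2, Col5a3, Col6a1, Col6a2 and Col14a1 were picked in the same way. The procedure was tested on simulated data. Alternatives were quantile or median scaling, an offset of 16 or 64, no filter or one at the 60th percentile, no variance trend, array weights, a replicate block, each array left out, the mean over probe sets, and the log2 ratio of group means.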

Additional observations from a re-analysis of the deposited data

How the results depend on the processing

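Lum stayed lower and Omd higher in diabetic muscle, under all alternatives run, and each passed the limma threshold wherever an adjusted p was computed, which excepts the log2 ratio of group means (-1.44 for Lum and 1.66 for Omd, with no test). Their highest adjusted p outside the omitted arrays, 0.031 for Lum and 0.023 for Omd, came with the replicate block. Same-numbered rats did not deviate together (correlations of 0.098, -0.195 and -0.068), so the block is an alternative only. It gave 162 probe sets higher and 170 lower, against 314 and 331 without it. Without the filter 200 were higher, and with single arrays left out 133 to 226 were higher and 179 to 235 lower. For the changes below the cause was not tested.

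The sign turned for genes near 0. Bgn gave 0.0051 with scaling to the same median, 0.073 with array weights, 0.013 as the log2 ratio of group means, and -0.16 to 0.14 with single arrays left out. Ogn 1376749_at gave -0.091 with array weights and -0.18 to 0.28 with arrays left out, Ogn 1383263_at -0.14 to 0.39 and Bgn minus Dcn -0.038 to 0.33.

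The lists moved more. For other proteoglycans, no filter gave 0 higher, 1 lower and a median of -0.10, no variance trend gave 0 higher, and the 60th percentile gave a median of -0.0042. Single omissions gave 0 to 1 higher and medians of -0.096 to 0.015. The collagen median was -1.02 with an offset of 64 and -1.26 to -0.99 with arrays left out. With all arrays kept, 8 to 10 collagens were called lower. The median of chain synthesis genes was 0.043 with the mean over probe sets and -0.055 to 0.15 with arrays left out. For processing enzymes, no filter gave 0 higher and a median of -0.21, no trend and the block each gave 0 higher and 1 lower, the mean over probe sets gave a median of -0.26, and omissions gave 0 to 1 higher and 1 to 2 lower. For ligands and receptors, median scaling gave 1 higher, no filter 0 higher, no trend and the block each 1 higher and 1 lower, and omissions 0 to 1 in each direction.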

Other observations

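Of the genes on the lists of matrix, enzyme and ligand genes, 27 lay below the filter and so were not tested. Among them 4, Sdc3, Spock1, Mstn and Erbb4, were lower in diabetic muscle without overlap and 1, Tnf, was higher, and these were picked after their values were seen. Among all tested probe sets 29.6% did not overlap, and the share over all probe sets below the filter was not computed. The count is thus no result about these genes. Sdc3, a heparan sulfate proteoglycan of muscle precursor cells, had signals of 21.2, 20.1 and 18.0 in diabetic and 109.4, 79.5 and 120.7 in normal replicates 1, 2 and 3 in its brightest probe set, without overlap. Its other 2 probe sets overlapped, with means of 35.9 and 9.47 in diabetic and 59.6 and 10.8 in normal muscle. Mstn, which encodes myostatin, a ligand that decorin can bind, had 30.8, 4.4 and 7.3 in diabetic and 99.3, 67.3 and 159.2 in normal replicates, also without overlap. Tnf, an inflammatory cytokine, had 29.7, 44.9 and 41.2 in diabetic and 10.2, 13.7 and 21.1 in normal replicates. The other probe set of Tnf overlapped, at 5.4, 5.4 and 22.5 in diabetic and 4.2, 8.7 and 8.2 in normal replicates. Spock1 was at 4.1 to 5.2 in diabetic and 6.5 to 22.6 in normal muscle, and Erbb4 at 8.2 to 10.6 in diabetic and 11.5 to 27.8 in normal muscle. Present calls were not used here.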
